A study of Mus musculus with 22 samples.

Results

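Mpo, Elane, Prtn3, Ctsg and Ms4a3, 5 genes of the primary (azurophil) granule and of granulocyte-monocyte progenitors, were chosen by name and followed through all 4 count tables. The choice was made with earlier results of these data known. All 5 were found among the 52459 genes of the bulk and liver tables, among the 52453 genes with an H3K4me3 window and among the 14780 genes of the single-cell table. All 5 passed the filter on low counts in every comparison.

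Neutrophil granules are made in waves, and the primary granules are filled first, in promyelocytes. Mpo encodes myeloperoxidase, the haem enzyme of these granules, which makes hypochlorous acid. Elane (neutrophil elastase), Prtn3 (proteinase 3) and Ctsg (cathepsin G) encode serine proteases that the cysteine protease encoded by Ctsc activates by trimming their ends. Ms4a3 encodes a membrane protein with several transmembrane spans that marks cells committed to the granulocyte-monocyte fate. Fetal liver is the main site of blood formation at mid-gestation.

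The 22 samples were taken from fetal livers of E14.5 mouse embryos (E, embryonic day). In the deficient group (KO), both Mettl3 alleles were floxed and Vav-Cre, which is active in blood cells and their precursors, was present, so other liver cells kept the gene. Controls (WT) carried the same floxed alleles and no Vav-Cre. The labels name no treatment. Mettl3 encodes the enzyme that writes the mark N6-methyladenosine into RNA, and the role of this mark in blood formation was the study's question. LSK cells (Lin-Sca-1+c-Kit+, the sorted fraction of stem cells and early progenitors) were profiled by bulk sequencing of polyadenylated RNA (3 KO, 3 WT). They also gave H3K4me3 CUT&RUN and single-cell RNA-seq, each with 2 KO and 2 WT libraries. From whole liver came total RNA before (INPUT, 2 and 2) and after pull-down with J2, an antibody against double-stranded RNA (J2, 2 and 2). Each library is called a biological replicate, from a mouse, in the labels.

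Libraries held 20088100 to 40641081 counts in bulk, 11508749 to 14451593 over the H3K4me3 windows, 3100910 to 5251496 in INPUT and J2, and 7264127 to 11638238 over kept single cells. Mettl3 was at 4.13, 6.31 and 5.52 CPM (normalised counts, scaled to a common library total) in bulk KO 1 to 3 and at 33.2 to 43.0 CPM in bulk WT. In INPUT it was at 6.70 CPM in the library labelled KO 1 but 26.9 CPM in the library labelled KO 2, beside 29.4 and 24.9 CPM in WT. In J2 it was higher in the libraries labelled KO (46.2 and 34.6 CPM) than in those labelled WT (25.5 and 30.2 CPM). In the single-cell sums Mettl3 was higher in the libraries labelled KO (64.3 and 52.2 CPM) than in those labelled WT (36.3 and 33.3 CPM). Where those reads fall relative to the deleted exons is not given in the sources used here, so these values do not check the J2 and single-cell labels. Xist had a count in 38.6% and 46.4% of cells of the 2 libraries labelled KO and in 0.0% of both labelled WT. In the single cells, sex therefore cannot be told apart from genotype.

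The starts of the 5 genes are shown first, because their promoters have a short motif in common and because H3K4me3 was counted there. The 250 bases before the RefSeq start are given 5′ to 3′ on the gene's own strand, in build GRCm38.p6, with the core GAGGAA of the transcription factor PU.1 in capitals. The Ms4a3 stretch holds no capitals, because its match lies behind the start.

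Mpo: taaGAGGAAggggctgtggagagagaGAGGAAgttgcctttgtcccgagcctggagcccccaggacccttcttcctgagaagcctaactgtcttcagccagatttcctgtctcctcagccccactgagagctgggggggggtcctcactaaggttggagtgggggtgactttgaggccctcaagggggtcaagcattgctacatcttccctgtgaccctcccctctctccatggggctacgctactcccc
Elane: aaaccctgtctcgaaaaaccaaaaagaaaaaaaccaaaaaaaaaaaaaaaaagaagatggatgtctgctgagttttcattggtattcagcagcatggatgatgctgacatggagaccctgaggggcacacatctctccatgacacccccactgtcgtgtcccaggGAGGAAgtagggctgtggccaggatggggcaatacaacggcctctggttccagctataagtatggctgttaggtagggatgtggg
Prtn3: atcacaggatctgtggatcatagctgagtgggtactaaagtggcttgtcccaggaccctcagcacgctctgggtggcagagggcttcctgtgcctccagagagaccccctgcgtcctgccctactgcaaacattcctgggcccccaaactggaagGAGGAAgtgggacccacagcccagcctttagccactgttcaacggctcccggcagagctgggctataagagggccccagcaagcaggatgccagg
Ctsg: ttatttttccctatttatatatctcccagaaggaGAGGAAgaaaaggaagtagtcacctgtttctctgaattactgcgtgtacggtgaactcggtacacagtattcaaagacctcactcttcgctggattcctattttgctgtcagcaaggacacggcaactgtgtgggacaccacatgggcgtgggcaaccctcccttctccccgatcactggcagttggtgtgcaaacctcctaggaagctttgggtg
Ms4a3: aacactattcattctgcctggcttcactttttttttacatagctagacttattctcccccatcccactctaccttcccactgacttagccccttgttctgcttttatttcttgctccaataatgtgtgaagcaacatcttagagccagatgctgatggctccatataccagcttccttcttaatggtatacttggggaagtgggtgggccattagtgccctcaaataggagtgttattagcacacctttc

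These stretches lie at chr11:87793534-87793783 (plus strand) for Mpo, chr10:79886062-79886311 (plus) for Elane and chr10:79879417-79879666 (plus) for Prtn3. They lie at chr14:56102575-56102824 (minus) for Ctsg and chr19:11640852-11641101 (minus) for Ms4a3. In windows from 250 bases before to 50 after the start, GAGGAA was found on either strand in 5 of 5 members and in 28.3% of 27018 RefSeq promoters of that length. Counted from the start, the matches began at base -247 and -224 in Mpo, -85 in Elane, -95 in Prtn3, -216 in Ctsg and 36 in Ms4a3. The PU.1 core was marked after these sequences had been seen, so the count is a description. The C/EBP form TTNNGNAA was found in 1 of 5 members (Ms4a3, 2 matches) against 40.7% of promoters, and the RUNX form TGNGGT in 1 of 5 (Ctsg) against 45.6%. The MYB form AACNG was found in 4 of 5 members, all but Ms4a3, and in 80.4% of promoters. The letters TATAA were found in 3 of 5 and in 25.5% of promoters. They began at base -31 in Elane and -32 in Prtn3 on the coding strand, and in Ctsg lay at -236 on the other strand. In the 5 members no match overlapped another, and a match is only a match of letters.

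The bulk comparison asked how RNA in LSK cells differs without Mettl3. RNA of 4 of the 5 members rose in KO, and 21.6% of the 14405 genes tested were called higher. All 5 had every KO library above every WT library, as did 26.8% of all genes. Ms4a3 rose the most, then Ctsg, Prtn3 and Mpo, while Elane did not pass the test. The median log2 fold change was 1.67 over the 5 members and -0.02 over all genes. In bulk RNA, a larger share of cells that express a gene and more RNA per cell cannot be told apart.

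Mpo was at 3191, 3159 and 3132 CPM in KO 1 to 3 and at 1381, 1342 and 1502 CPM in WT 1 to 3. The means were 3161 ± 29 and 1408 ± 83 CPM (SD, n = 3). On the log2 scale KO was 1.17 higher (SE 0.07), and the edgeR quasi-likelihood test gave p 2.1e-05 after Benjamini-Hochberg adjustment over all genes. Every KO library lay above every WT library, with a gap far wider than the spread within either group.

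Among the serine proteases, Prtn3 stood at 380, 423 and 397 CPM in KO against 124, 121 and 131 CPM in WT. Its log2 fold change was 1.67 (SE 0.07, adjusted p 8.8e-06 by edgeR). Ctsg stood at 118, 129 and 125 CPM in KO against 28.0, 24.3 and 22.3 CPM in WT. Its log2 fold change was 2.32 (SE 0.09, adjusted p 8.8e-06 by edgeR). The groups of both genes were far apart, with each KO library at several times the level of each WT library.

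Elane, the third protease, stood at 24.3, 25.8 and 24.8 CPM in KO and at 18.4, 23.7 and 10.1 CPM in WT. The 3 KO libraries were nearly equal and all lay above WT, but the WT libraries spread over a range wider than the difference from KO. The means were 25.0 ± 0.78 and 17.4 ± 6.8 CPM (SD, n = 3) and the log2 fold change 0.51 (SE 0.24, adjusted p 0.114 by edgeR). The call depends on the setting: the adjusted p was 0.0306 without WT 2, 0.0493 by DESeq2 and 0.0173 with no filter on low counts. Without WT 3 the log2 fold change was 0.28 and not called.

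Ms4a3, the progenitor gene, stood at 49.5, 61.9 and 56.3 CPM in KO and at 7.98, 8.35 and 5.25 CPM in WT. Its log2 fold change was 2.94 (SE 0.17, adjusted p 1.6e-05 by edgeR). The groups did not come near each other. The calls of Mpo, Prtn3, Ctsg and Ms4a3 held in each of the 6 fits that left out 1 library.

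**Figure D1:**
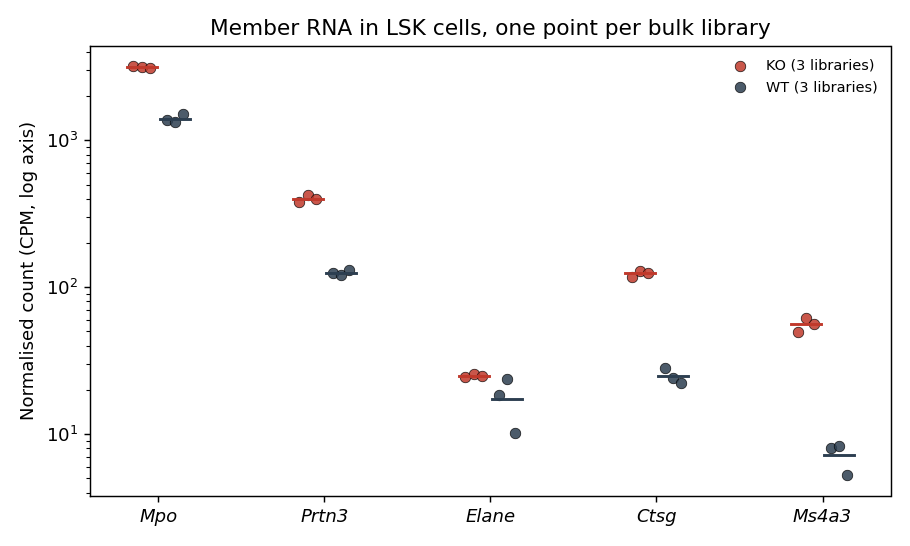
Normalised count (CPM, log axis) of the 5 genes in the 6 bulk LSK libraries, with KO in red, WT in dark blue and a line at each group mean. KO lies above WT for every gene, and the gap is narrowest for Elane, where the highest WT library (23.7 CPM) is close to the lowest KO library (24.3 CPM).

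The rise was not of equal size. The ratio of each gene's counts to those of Mpo within a library does not depend on scaling. On the log2 scale, Ms4a3 to Mpo was -5.83 ± 0.17 in KO and -7.64 ± 0.45 in WT (SD, n = 3), a difference of 1.81. Ctsg to Mpo differed by 1.16 and Prtn3 to Mpo by 0.50, each higher in all 3 KO libraries than in any WT library. Elane to Mpo went the other way, with -6.98 ± 0.05 in KO and -6.43 ± 0.72 in WT, and its groups overlapped because WT 3 was at -7.22. The difference of -0.56 became -0.26 without WT 2 and -0.96 without WT 3. The exact two-sided permutation p was 0.1 for Ms4a3, Ctsg and Prtn3 (0.133 adjusted over the 4 ratios) and 0.4 for Elane. With 3 libraries against 3, 0.1 is the smallest p this test can give.

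Other genes of the granule and of its progenitors were read from lists. Of all genes tested in bulk, 21.6% were called higher and 22.6% lower. Of 16 tested genes of granule contents other than the members, 7 were called higher and 2 lower, with a median log2 fold change of 0.19. The carboxypeptidase gene Ctsz (1.01) and Lamp2 of the granule and lysosome membrane (0.77) were among those that rose, as was Prss57 (0.64), a serine protease gene of the same granule. Ctsh, an aminopeptidase gene, fell by 1.00 on the log2 scale. Of 16 tested genes for activating, packing, trafficking or inhibiting granule proteins, 9 were higher and 2 lower, with a median of 0.43. Serpinb1a, whose product inhibits elastase, proteinase 3 and cathepsin G, rose by 1.11 (SE 0.12), Ctsc by 0.93 (SE 0.11), the chaperone gene Calr by 0.87 and the trafficking gene Rab32 by 0.71. Ctsc stood at 257 ± 4.3 CPM in KO and 134 ± 23 CPM in WT (SD, n = 3).

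Of 30 genes of granulocyte-monocyte progenitors, 15 were higher and 1 lower, with a median of 0.36. Hp, which encodes haptoglobin, rose by 2.59 and Fcgr2b, an inhibitory Fc receptor gene, by 2.21. Igsf6 rose by 1.98 and Cebpe, a transcription factor of granulocyte maturation, by 1.77. The 1 gene that fell was Cd33 (-0.79), a receptor gene named here after its value was seen. Of 12 tested genes of later granules and mature neutrophils, 4 were higher and 3 lower, beside 21.6% and 22.6% of all genes. Ly6g had 0 counts in every bulk library. Mmp8 (1.99), S100a8 (1.78) and S100a9 (1.40) rose, and the integrin gene Itgam fell by 1.12. The summed level of this late list was 178 to 283 CPM in KO and 97.8 to 173 CPM in WT.

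Markers of other cells moved too. In bulk LSK RNA, 14 of 15 lymphoid genes, 12 of 15 stem cell genes and 7 of 12 erythroid genes were lower, and none of these was higher, beside 22.6% of all genes called lower. Of the monocyte and macrophage genes 7 of 15 were lower and 2 higher, and of the mast cell and basophil genes 5 of 8 were higher and 1, Kit, lower. The mast cell and basophil list summed to 513 to 517 CPM in KO and 599 to 683 CPM in WT. Megakaryocyte genes gave 1 higher and 3 lower of 9, and eosinophil (9) and hepatocyte (10) genes none in either direction. The part of these cells in the members' change was not tested.

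The H3K4me3 comparison asked how this mark of active gene starts differs at the same genes. Counts in the strongest window of all 5 members lay higher in both KO libraries than in both WT libraries, as did 27.4% of all windows tested. The test called 3 of the 5 (Ms4a3, Prtn3 and Mpo) higher. Of 51039 windows tested, 1 per gene, 3.22% were called higher and 4.66% lower. The median log2 fold change was 0.80 over the members and -0.15 over all windows.

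Each window covers 3 kb at an annotated transcript start (GRCm38.p5). The strongest was taken of 6 windows for Mpo and for Prtn3, 3 for Ms4a3, 2 for Ctsg and 1 for Elane. That choice can raise the level of a gene with more windows, so levels compare only roughly between genes. The strongest window of Mpo starts at a transcript annotated as nonsense-mediated decay and that of Prtn3 at one with a retained intron, and those of the other 3 genes at protein-coding transcripts. Whether the 3 kb are the whole width or lie on each side is not given. At Prtn3 (chromosome 10, start at 79880980) the levels were 131 and 114 CPM in KO 1 and 2 and 79.2 and 60.8 CPM in WT 1 and 2. At Mpo (chromosome 11, start at 87795203) they were 102 and 80.4 CPM in KO and 65.0 and 39.3 CPM in WT. Both genes showed a wide spread within WT, and their log2 fold changes were 0.81 (SE 0.25, adjusted p 0.0258 by edgeR) and 0.80 (SE 0.23, adjusted p 0.0147).

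Ms4a3 (chromosome 19, start at 11640805) stood at 53.4 and 51.5 CPM in KO and at 21.6 and 20.7 CPM in WT. Replicates were close, and the log2 fold change was 1.31 (SE 0.19, adjusted p 5.4e-09 by edgeR). In WT it had the lowest H3K4me3 level of the 5 genes, and in KO it lay above Ctsg and Elane.

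Ctsg (chromosome 14, start at 56102574) stood at 41.4 and 45.0 CPM in KO and at 30.7 and 31.8 CPM in WT. Elane (chromosome 10, start at 79886247) stood at 41.3 and 45.6 CPM in KO and at 32.2 and 30.4 CPM in WT. These 2 genes had almost the same levels and the same log2 fold change of 0.47 in H3K4me3, and neither passed the test (adjusted p 0.0903 and 0.0865 by edgeR). The log2 fold changes of Ctsg and Elane were 0.16 and 0.17 when only marked windows (mean log2 CPM of at least 4) were fitted, and 0.22 and 0.23 with library size as the only scaling. Beside these, the log2 fold changes of bulk RNA were 2.32 for Ctsg and 0.51 for Elane. The H3K4me3 changes of Mpo, Prtn3 and Ms4a3 also depended on the setting. They were 0.50, 0.50 and 1.00 over marked windows, and 0.56, 0.56 and 1.06 with library size as the only scaling. RLE scaling gave higher values, with 0.92, 0.92 and 1.43 for these genes and 0.58 for both Ctsg and Elane.

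The calls of Mpo and Prtn3 rested on single libraries: without KO 1 their adjusted p was 0.257 and 0.275, and without WT 2 it was 0.385 and 0.293. The log2 fold change of Mpo was then 0.49 without WT 2. DESeq2 did not call Mpo (adjusted p 0.157), and scaling by RLE did not call Prtn3 (0.0592), while Ms4a3 was called in every fit.

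All 18 distinct windows of the 5 genes (6 of Mpo, 6 of Prtn3, 3 of Ms4a3, 2 of Ctsg and 1 of Elane) were higher in KO and passed the test when every distinct window of every gene was tested together, a fit that called 5.93% of 121436 windows higher. In that fit log2 fold changes ran from 0.44 to 0.68 over the Mpo windows and from 0.40 to 0.72 over the Prtn3 windows. Neighbouring windows share reads, so they are not independent. The weakest Mpo windows were those far inside the gene (start at 87803117, with 302 and 384 counts in KO and 233 and 262 in WT), against 1244, 1105, 940 and 532 counts at the strongest.

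**Figure D2:**
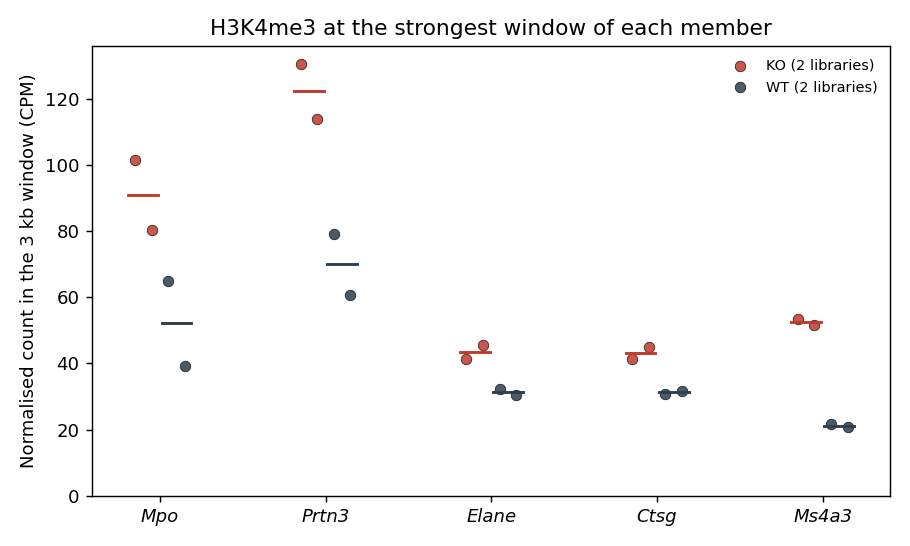
H3K4me3 counts (CPM) in the strongest 3 kb window of each gene, with 2 KO libraries in red, 2 WT libraries in dark blue and a line at each group mean. KO lies above WT at all 5 genes, with the closest replicates at Ms4a3 and the widest spread at Mpo and Prtn3.

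The same lists gave 14 of 30 progenitor genes with more H3K4me3 and 1 with less (Ly6c2, -0.57, named after its value was seen), with a median of 0.57. Igsf6 (1.04), Cebpe (0.95), Fcgr2b (0.84) and Hp (0.80) led. Of 16 late granule genes, 10 were higher and none lower, with Cd177 (1.56), Lcn2 (1.33), S100a8 (1.18) and S100a9 (1.09) in front. Cd177 was low, with means of 14.2 CPM in KO and 4.83 CPM in WT. Of all windows, 3.22% were called higher and 4.66% lower. The other scalings were not applied to these lists. Of 18 granule content genes 5 were higher, among them Prss57 (0.86) and Grn (0.79), the progranulin gene, and of 17 genes for handling granule proteins 0 were called in either direction by edgeR.

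Elane and Prtn3 are neighbours on chromosome 10, with their nearest starts 4464 bp apart. Of the other genes within 100 kb of them, Prss57 (83515 bp from a Prtn3 start) and Palm (59806 bp) were called higher in both RNA and H3K4me3. Their log2 fold changes were 0.64 and 0.86 for Prss57, and 1.11 and 0.84 for Palm. Plppr3, which starts 68 bp from a Prtn3 transcript, rose by 0.51 in RNA, as did Wdr18 (0.51), Fstl3 (1.01) and Tmem259 (0.28), none of them called in H3K4me3. E130317F20Rik (-1.13) and R3hdm4 (-0.28) fell in RNA. Of 22 neighbours of each gene, 12 were tested in RNA for Elane and 13 for Prtn3. Of all genes tested in RNA, 21.6% were called higher and 22.6% lower. In H3K4me3, AC151828.1 was higher (0.83) and Grin3b lower (-0.75), and neither was among the genes tested in RNA.

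Near Mpo, Gm11505 (1394 bp away) was higher in both RNA (1.51) and H3K4me3 (0.69), and Supt4a in RNA (0.48). Of 14 neighbours of Mpo, 9 were tested in RNA. Near Ctsg, the basophil protease gene Mcpt8 (16502 bp) rose by 1.44 in RNA, and it was the only 1 of 15 neighbours tested there. Near Ms4a3, 2 of 11 neighbours were tested in RNA. Both, the family members Ms4a2 (17086 bp, 1.44) and Ms4a6d (35956 bp, 0.89), rose. Gm26183 was lower in H3K4me3 (-0.95) and was not tested in RNA. Whether the counting used strand is not given in the sources used here, so overlapping transcripts such as Gm11505 and Mpo may share reads.

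The INPUT comparison asked how RNA of the whole liver differs. Mpo and Ms4a3 were called higher in KO and Elane lay lower without passing the test. Of 14657 genes tested, 0.614% were called higher and 0.566% lower. The median log2 fold change was 1.97 over the 5 members, also with Ms4a3 at its value against the floor given below, and 0.02 over all genes. Of the 2 libraries labelled KO, KO 2 held Mettl3 at the WT level, so each direction below holds for the libraries as labelled. Whole liver also holds cells in which Vav-Cre does not act.

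Mpo was at 307 and 358 CPM in KO 1 and 2 and at 127 and 157 CPM in WT 1 and 2. Its log2 fold change was 1.23 (SE 0.25, adjusted p 0.0432 by edgeR). Ms4a3 had 100 and 37 counts (24.8 and 11.3 CPM) in KO and 0 counts in both WT libraries. Against a floor of 3 counts over the 2 WT libraries (0.596 CPM), Ms4a3 was 31.5-fold higher in KO, with the KO counts taken as exact. Its adjusted p was 0.0359 by edgeR. The floor covers counting error in the group with 0 counts only, and the counting intervals below cover counting error only. Both calls were fragile. Each was lost in 5 of the 8 fits that left out 1 library (without INPUT KO 1, INPUT KO 2, J2 KO 1 or J2 KO 2 for both, without INPUT WT 1 for Mpo and without J2 WT 2 for Ms4a3), with an adjusted p of up to 0.182 for Mpo and 0.137 for Ms4a3. With the 4 INPUT libraries alone it was 0.0938 for Mpo and 0.120 for Ms4a3.

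Ctsg was at 43.2 and 57.2 CPM in KO and 9.66 and 3.68 CPM in WT, with a log2 difference of 2.902 (SE 0.65) and an edgeR adjusted p of 0.0595. Prtn3 was at 29.5 and 42.5 CPM in KO and 8.50 and 9.81 CPM in WT, which is 1.97 on the log2 scale (SE 0.58, adjusted p 0.124). Neither passed the test with edgeR. KO lay above WT without overlap for Mpo, Ms4a3, Ctsg and Prtn3, as for 22.1% of all genes. DESeq2 called both, at adjusted p 0.00266 and 0.0462, and edgeR called Ctsg without INPUT WT 1 (0.0246).

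Elane was at 6.70 and 5.81 CPM in KO and at 21.6 and 17.6 CPM in WT, from 27, 19, 56 and 43 counts. Here both KO libraries lay below both WT libraries, the reverse of the order of the other 4 genes and found for 18.2% of all genes. The log2 fold change was -1.64 (SE 0.83), with an adjusted p of 0.339 by edgeR (unadjusted 0.0724) and 0.278 by DESeq2. The ratio of Elane to Mpo within a library was -5.52 and -5.95 in KO and -2.55 and -3.16 in WT on the log2 scale.

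Among the other lists in INPUT, 1 of 16 granule content genes (Lyz2, 2.40), 1 of 15 handling genes (Ctsc, 2.69) and 3 of 27 progenitor genes were higher and none lower. Those 3 were Csf2rb2 (3.90), Plac8 (3.80) and Igsf6 (2.63). Of all genes, 0.614% were called higher and 0.566% lower. Of 10 late granule genes, Cybb (3.67), the oxidase subunit gene, was higher. The late list summed to 493 to 560 CPM in KO and 131 to 192 CPM in WT, and Retnlg, Chil3 and Ly6g had 0 counts in every INPUT library. The macrophage list summed to 638 to 647 CPM in KO and 249 to 264 CPM in WT, with 2 of 14 genes higher. The hepatocyte list summed to 21739 to 23021 CPM against 10956 to 14647 CPM, with 4 of 11 higher, and 4 of 12 erythroid genes were lower. The part of these shifts in the members' values was not tested.

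The J2 comparison asked whether RNA of the 5 genes was taken up with double-stranded RNA. None of them was called higher in J2 than in INPUT in either genotype. In WT, 3 of the 5 members were called lower in J2 than in INPUT, where 10.7% of genes were called lower. In the libraries labelled KO, 4 of the 5 were called lower, where 15.1% of genes were. Mettl3 was not lower in either J2 library labelled KO nor in INPUT KO 2, so the values for KO below are those of libraries labelled so.

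Mpo was at 32.9 and 51.6 CPM in J2 WT and at 60.9 and 65.5 CPM in J2 KO, below every INPUT library. From summed counts, J2 over INPUT was 0.295 in WT (95% exact interval 0.259 to 0.335) and 0.192 in KO (0.176 to 0.208). The log2 fold changes of J2 over INPUT were -1.75 (SE 0.26, adjusted p 0.00059 by edgeR) and -2.39 (SE 0.26, adjusted p 5.1e-05).

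Ctsg had the lowest ratio of J2 to INPUT, with 3 counts in the J2 WT libraries against 34 in INPUT, a ratio of 0.0524 (95% exact interval 0.0103 to 0.167). In KO it was 0.0996 (0.0741 to 0.132). Its adjusted p was 0.0043 in WT and 0.0023 in KO by edgeR. Prtn3 was called lower in KO, with a ratio of 0.209 (0.162 to 0.267) and an adjusted p of 0.0108, lost without INPUT KO 2, J2 KO 1 or J2 KO 2 (up to 0.131). In WT its ratio was 0.633 (0.415 to 0.968) with an adjusted p of 0.464. The interaction given below tests this difference.

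Elane had 13 and 8 counts in J2 WT and 9 and 3 in J2 KO. Its ratios were 0.126 (0.0747 to 0.203) in WT and 0.162 (0.0779 to 0.310) in KO, with an adjusted p of 0.0293 and 0.0460 by edgeR. With the animal as a block, which pairs the input and the pull-down of a liver, these became 0.0561 and 0.0786 and the calls ended. The Elane call was also lost in 3 of 8 fits that left out a library in WT (INPUT WT 1, J2 WT 1 or J2 WT 2, up to 0.194) and in 6 of 8 in KO (all but INPUT WT 1 and INPUT WT 2, up to 0.312). Ms4a3 was not called in either genotype. In KO its ratio was 0.240 (0.171 to 0.331) with an adjusted p of 0.141. In WT it had 8 counts in J2 and 0 in INPUT, with an adjusted p of 0.0986 by edgeR. Against the floor of 3 counts over INPUT the ratio was 1.58. It takes the 8 counts as exact, so it is not a lower limit.

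The change of the J2 enrichment between genotypes was called for none of the 5 genes, and edgeR called 0.0% of the 14657 genes (1340 at an unadjusted p under 0.05, and 75 called by DESeq2, with no member among the called). Of the members, Ms4a3 alone had an unadjusted p under 0.05 (0.00912). The fitted change was -0.64 (SE 0.36) on the log2 scale for Mpo and -1.65 (SE 0.81) for Prtn3, whose counting intervals given above did not overlap between genotypes. The adjusted p of edgeR was 0.610 and 0.568.

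**Figure D3:**
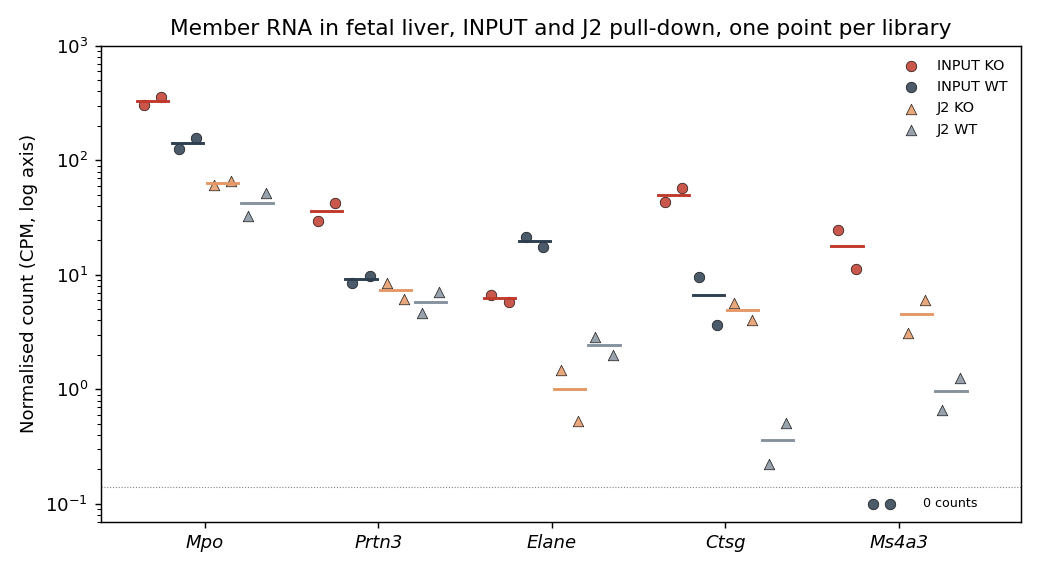
Normalised count (CPM, log axis) of the 5 genes in whole liver INPUT (circles) and J2 pull-down (triangles), 2 libraries per group, with a line at each group mean and libraries with 0 counts drawn below the dotted line. Elane is the gene whose INPUT KO libraries (5.81 and 6.70 CPM) lie below INPUT WT (17.6 and 21.6 CPM).

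The single-cell comparison asked which LSK cells carried the RNA. Cells with a count of Mpo or Prtn3 were common and more frequent in the libraries labelled KO. Ctsg and Ms4a3 were frequent mainly in 1 of them, KO 1. Elane was rare in all 4 libraries. After filtering, 4920 and 3884 cells of KO 1 and 2 and 2731 and 4143 cells of WT 1 and 2 remained, with medians of 1478.5, 2134.5, 2099 and 1560 counts per cell. Of their barcodes 3 to 6 per library also occurred in another library.

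To compare shares at equal depth, each cell was thinned to 1000 counts, which left 4073, 3199, 2463 and 3391 cells. Mpo was then found in 44.3% and 35.9% of cells in KO 1 and 2 and in 25.9% and 30.5% in WT 1 and 2. Prtn3 was found in 35.2% and 19.0% in KO and in 16.4% and 12.1% in WT. For both genes KO lay above WT, and the share of all genes ordered so was not computed. At full depth the shares were 57.6%, 55.9%, 40.5% and 42.2% for Mpo and 48.1%, 36.8%, 28.2% and 20.7% for Prtn3.

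Ctsg was found in 15.5% of cells of KO 1 but in 4.44% of KO 2, beside 4.95% and 3.92% in WT, so the groups overlapped. Ms4a3 was found in 7.54% and 1.56% in KO and in 1.34% and 1.03% in WT. Elane was found in 0.982% and 0.156% in KO and in 0.934% and 0.265% in WT, at full depth in 72, 16, 48 and 18 cells. Replicate 1 lay above replicate 2 in both genotypes for Elane, and also for Prtn3, Ctsg and Ms4a3. For Mpo it did so in KO only. At full depth the shares were 22.6%, 8.83%, 7.87% and 5.67% for Ctsg, 11.6%, 3.42%, 2.31% and 1.57% for Ms4a3 and 1.46%, 0.412%, 1.76% and 0.435% for Elane.

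Any of the 5 genes was found in 64.4% and 47.7% of thinned cells in KO and in 36.7% and 38.5% in WT. The exact two-sided permutation p over the 4 libraries was 0.33 for Mpo, Prtn3, Ms4a3 and any member, the smallest that 2 against 2 allows. It was 0.667 for Ctsg and 1.0 for Elane. With other thinning depths the Ctsg groups overlapped at 1500 counts per cell and not at 500. Without KO 1, the difference in share fell from 11.8 to 7.64 percentage points for Mpo, from 12.9 to 4.76 for Prtn3, from 5.52 to 0.0012 for Ctsg and from 3.36 to 0.377 for Ms4a3. In cells with a count, thinned means per cell were 1.61 and 1.59 counts of Mpo in KO and 1.63 and 1.53 in WT. Such a mean cannot fall below 1 and moves little at this depth, so it does not tell share from RNA per cell. Over all thinned cells the means were 0.714 and 0.570 counts of Mpo in KO and 0.422 and 0.467 in WT.

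**Figure D4:**
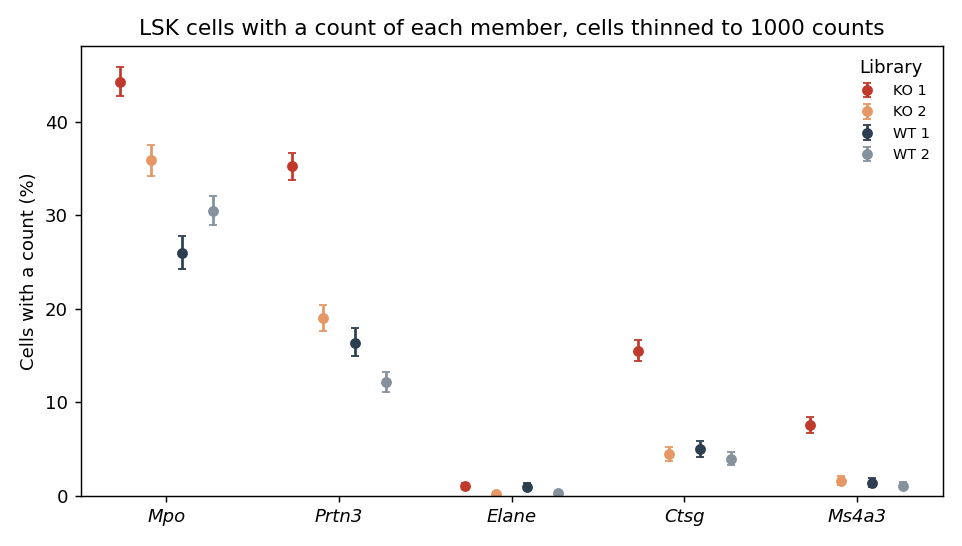
Share of LSK cells (%) with at least 1 count of each gene after thinning every cell to 1000 counts, 1 point per library with its exact 95% binomial interval, which covers counting error only. KO 1 stands above the other 3 libraries for Mpo, Prtn3, Ctsg and Ms4a3, and Elane is under 1% in all 4.

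Counts summed over the cells of each library kept KO above WT for Mpo and Prtn3, while the groups of Ctsg, Ms4a3 and Elane overlapped. For Prtn3 the lower KO library (230 CPM) barely exceeded the higher WT library (228 CPM). The share of all genes with KO above WT in these sums was not computed. Mpo was at 737 and 632 CPM in KO and 447 and 489 CPM in WT, with a log2 difference of 0.55 (SE 0.15) and an edgeR adjusted p of 0.275. Prtn3 was at 513 and 230 CPM in KO and 228 and 141 CPM in WT (1.01, SE 0.44, adjusted p 0.385). Ctsg was at 232 and 56.0 against 81.7 and 52.7 CPM, Ms4a3 at 95.1 and 17.4 against 19.3 and 11.2 CPM, and Elane at 8.93 and 1.57 against 15.5 and 2.43 CPM. KO 1 was the highest library for every member but Elane, whose highest library was WT 1.

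None of the 5 was called by edgeR, where Mpo alone had an unadjusted p under 0.05 (0.0148) and 0.00748% of 13374 genes were called higher. DESeq2 called Mpo (adjusted p 0.00417). Without KO 1, the log2 fold change of Ctsg turned from 1.10 to -0.27, that of Prtn3 went from 1.01 to 0.31 and that of Ms4a3 from 1.88 to 0.19. That of Elane (-0.77) turned to 0.03 without KO 2 and to 1.08 without WT 1.

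To look at possible background RNA, cells with at least 3 counts over the erythroid list and under 3 over each of the other lists were taken. Whether member RNA in these LSK cells was their own or free RNA was not tested. At full depth Mpo was found in 37.3%, 35.1%, 21.0% and 29.1% of such cells in KO 1, KO 2, WT 1 and WT 2, with medians of 2605, 3054, 3571.5 and 2032.5 counts per cell. Prtn3 was found there in 23.1%, 27.8%, 10.5% and 12.2%, Ctsg in 10.8%, 2.06%, 3.63% and 2.91%, Ms4a3 in 4.84%, 2.06%, 0.806% and 1.16%, and Elane in 0 to 2 cells per library (0.0% to 0.581%). In WT 2 that was 1 of 172 cells (exact 95% interval 0.015% to 3.2%), which does not separate the Elane share there from that of all cells (0.435%). For Mpo and Prtn3 these shares were below those of all cells of the same library despite more counts per cell, and they were also higher in the libraries labelled KO. The part of free RNA in the difference between genotypes was not tested.

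Cells with RNA of later granules carried all 5 genes at higher levels than the other cells of their library. Cells with at least 3 counts over 8 late granule genes of the table numbered 295 in KO 1 and 17 in KO 2, and 64 and 15 in WT 1 and 2. In all, 107 of these 391 cells were exactly at 3 counts and 426 further cells were 1 count below. In them Mpo stood at 1360 and 1980 CPM in KO and 1696 and 2416 CPM in WT, and Ctsg at 822 and 378 against 736 and 1471 CPM. Elane stood at 46.5 and 49.8 CPM in KO and at 311 and 184 CPM in WT, with 35 and 5 counts against 68 and 7. The Elane level was lower in both libraries labelled KO, on few counts and cells. Prtn3 also lay lower in both (812 and 557 against 827 and 867 CPM), and Ms4a3 overlapped (371 and 308 against 306 and 604 CPM). Of all Elane counts, 41.7%, 26.3%, 64.2% and 33.3% lay in these cells (KO 1, KO 2, WT 1, WT 2), against 14.8%, 2.61%, 12.1% and 2.18% of Mpo counts.

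Outside these cells Mpo remained higher in the libraries labelled KO (668 and 645 CPM) than in those labelled WT (382 and 499 CPM), as did Prtn3 (477 and 236 against 197 and 143 CPM). Ms4a3 stood at 69.6 and 15.5 against 9.23 and 8.94 CPM. How many of all genes were ordered so in these cells was not computed. Ctsg overlapped (176 and 55.4 against 56.6 and 48.2 CPM), and so did Elane (5.55 and 1.21 against 5.39 and 1.69 CPM).

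Cells with Elane held the other members more often than the rest of their library did. Of the 72, 16, 48 and 18 cells with an Elane count, 81.3% to 88.9% also had Mpo in 3 libraries and all 16 in KO 2, and 66.7% to 81.3% Prtn3, 50.0% to 68.1% Ctsg and 33.3% to 56.3% Ms4a3. Among the rest, 39.7% to 57.2% had Mpo, 20.5% to 47.7% Prtn3, 5.45% to 21.9% Ctsg and 1.34% to 11.2% Ms4a3, at lower median counts per cell. The converse differed between libraries: of cells with Ms4a3, 5.25% and 6.02% had Elane in KO 1 and 2, 42.9% in WT 1 and 9.23% in WT 2. Over cells, the mean correlation of log-scaled counts within the 4 libraries was highest for Ctsg and Ms4a3 (0.32), Mpo and Ctsg (0.29) and Mpo and Prtn3 (0.28), and lowest for Elane and Prtn3 (0.12). These are descriptions, since cells of a library share its depth, and sparse counts hold such values down.

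By the same measure, the 8 genes most like the sum of the members among 9852 genes were Plac8 (mean correlation 0.22), Stfa1 (0.22), Anxa3, Calr, Ccl9, Serpinb1a, Ap3s1 and Glipr1 (0.17). Most counts in that sum are of Mpo and Prtn3, so the likeness is mainly to these genes. In KO 2 they had 7638 and 2781 counts, beside 677 of Ctsg, 210 of Ms4a3 and 19 of Elane. Plac8 and Anxa3 belong to the progenitor list, Calr encodes a chaperone that binds newly made myeloperoxidase, and Serpinb1a encodes the protease inhibitor described above.

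**Figure D5:**
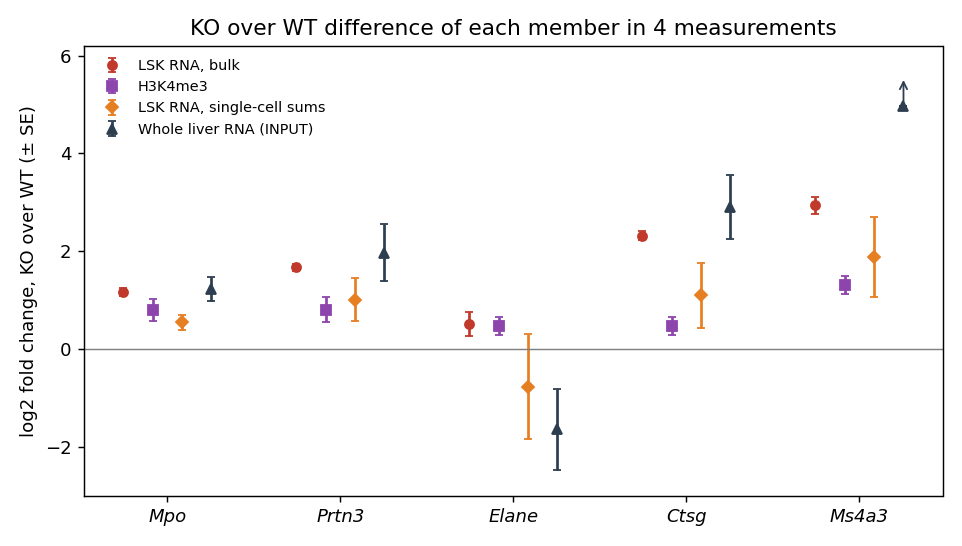
Log2 fold change of KO over WT (± SE) of each gene in bulk LSK RNA, H3K4me3, single-cell sums and whole liver INPUT. Ms4a3 in INPUT is drawn with an arrow at its value against the floor of 3 WT counts (4.98), without SE. Mpo, Prtn3, Ctsg and Ms4a3 are above 0 in all 4 measurements, while Elane runs from 0.51 in bulk to -1.64 in INPUT.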

How the data were processed

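All deposited values are counts: reads per gene (bulk, INPUT, J2), reads per 3 kb window at transcript starts (H3K4me3) and counts per gene and cell, as the authors deposited them per the labels. Whether single-cell counts are unique molecules is not given. The submitters' processing notes name build GRCm38.p5 and, without roles, edgeR, Seurat 3.0, bedtools, Picard 2.9.0, Bowtie2 2.2.9 and STAR 2.5.3a.

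Counts were tested with edgeR 4.0.16 (R 4.3.3): filterByExpr, TMM, quasi-likelihood F test and Benjamini-Hochberg adjustment over all features, called under 0.05. CPM values are TMM-normalised and SD is over libraries. One model held all 8 libraries of INPUT and J2. For H3K4me3 the window with the highest mean count per gene was used. Cells under 500 counts, or with 20% or more mitochondrial counts, were left out, and counts were summed per library. Doublets were not called here. Pipelines were tested on simulated data. Promoters are RefSeq's (GRCm38.p6), and all 5 members matched.

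Input and pull-down come from parts of 1 liver per the labels' protocols. Same-numbered pairs deviated together only weakly (r 0.012 in KO, 0.128 in WT).

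The members and gene lists were chosen with earlier results of these data known. Named genes are the members, up to 4 called genes of largest change per granule and progenitor list, the 8 genes most like the members over cells, and called neighbours within 100 kb. Alternatives were RLE and library size scaling, DESeq2 1.42.0, no filter, other windows, thinning depths, blocks and leaving out each library.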

Additional observations from a re-analysis of the deposited data

Results flagged for a closer look

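Elane was flagged because the genotypes were ordered in opposite ways in bulk LSK RNA and in whole liver RNA. In bulk LSK RNA all 3 KO libraries lay above all 3 WT libraries, with a log2 fold change of 0.51, as for 26.8% of all genes. In whole liver both libraries labelled KO lay below both WT libraries, with a log2 fold change of -1.64, as for 18.2% of all genes. The share of genes with both of these orders was not computed. Neither change passed the test in its own comparison, and the difference between the 2 was not tested, since the tables were normalised separately. The single-cell sums, also from LSK cells, did not share the order of the bulk: their log2 fold change was -0.77, with overlapping groups and a sign that turned when KO 2 or WT 1 was left out.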

How the results depend on the processing

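The 4 bulk calls held under every scaling, filter, tool and left-out library. All members kept their direction except as follows. In the single-cell sums, Ctsg ran from -0.2673 (without KO 1) to 1.787 with 1 library left out. Elane ran from -2.483 to 1.083 there, turning to 0.02588 without KO 2 and to 1.083 without WT 1. Its share difference ran from -0.4433 to 0.3825 percentage points (without KO 2), with 0.3038 without WT 1. In the change of J2 enrichment, Ctsg ran from -0.07137 (without INPUT WT 1) to 1.394 and Elane from -0.473 (without J2 KO 1) to 0.9354. The cause was not tested.

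Members called higher in H3K4me3 numbered 5 with all distinct windows and 5 with the replicate block, and 1 to 3 with 1 library left out. Members called higher in INPUT numbered 4 by DESeq2, 0 with INPUT libraries alone, 0 with the replicate block on those, and 0 to 2 with 1 library left out. Members called in J2 over INPUT in KO numbered 2 to 4 with 1 library left out. DESeq2 called 1 member in the single-cell sums.

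Over all features, H3K4me3 (4024 called) gave 788 by DESeq2, 655 over marked windows, 12979 over all distinct windows, 20842 with the replicate block and 1080 to 3858 with 1 library left out. INPUT (173) gave 329 by library size alone, 798 with no filter, 833 by DESeq2, 25 with INPUT alone, 20 with the replicate block on those and 29 to 451 with 1 library left out. The change in J2 enrichment (0) gave 3 by library size alone, 103 with no filter, 75 by DESeq2, 10 with the animal as replicate block and 0 to 9 with 1 library left out. J2 over INPUT gave 2744 to 5599 features in KO (4462) and 1855 to 3600 in WT (3503) with 1 library left out. The single-cell sums (1) gave 11 with no filter, 827 by DESeq2, 117 with the replicate block and 0 in each fit with 1 library left out.

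With library size as the only scaling, the median over all features went from -0.15 to -0.40 in H3K4me3, from 0.02 to 0.29 in INPUT, from 0.10 to 0.52 and 0.04 to 0.33 in J2 over INPUT (WT, KO), and -0.10 to -0.23 in its change. RLE scaling moved it to -0.04 in H3K4me3. Calls higher in KO went from 48.9% to 37.3% in bulk, from 40.9% to 28.3% (RLE 50.1%) in H3K4me3 and from 52.0% to 82.4% in INPUT. J2 over INPUT went from 55.3% to 74.5% in WT and from 50.3% to 62.9% in KO.

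Elsewhere the replicate numbers were not used as pairs in the main fits. In bulk the same-numbered correlations were 0.23, 0.096 and 0.044, and those of differently numbered libraries ran from -0.234 to 0.169. Same-numbered libraries gave 0.302 in H3K4me3, 0.26 in the single-cell sums and -0.013 in INPUT. Whether same-numbered libraries share a batch was not tested. With the replicate block all 5 members were called in bulk, with Elane at adjusted p 0.0155 by edgeR. Fits that leave 1 library in a group assume that it varies like the others. Leaving out libraries for the ratios to Mpo and for the shares of cells was added after seeing the data. Elane had under 60 counts in each liver library, which limits its precision there.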
